A study of Mus musculus with 6 samples.

Results

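The DNA damage signaling and repair genes described here are 46 named genes, all found by symbol among the 24062 genes counted. They fall into 8 pathway groups, with 13 genes of damage signaling and checkpoint, 5 of end joining, 9 of homologous recombination, 7 of base excision and single-strand break repair, 6 of nucleotide excision, 3 of the Fanconi pathway, 1 of mismatch repair and 2 of lesion bypass and nucleotide supply. They were listed by name, with earlier results of these data known, and the rule itself uses no measured value. RNA-seq was carried out on RAW264.7 cells, a mouse macrophage line, in 6 conditions with 1 library each, so no condition had a replicate. M0 cells were not polarized. M1 cells were treated over 24 h with LPS at 100 ng/mL and IFN-γ at 20 ng/mL, and M2 cells over 24 h with IL-4 at 20 ng/mL. RM0, RM1 and RM2 cells were in these states when irradiated with a dose of 10 Gy from a cesium gamma source, and were kept for a further 24 h. Each library was made from the pooled RNA of 5 wells, and whether the non-irradiated cells were kept for the same further time is not given in the sources used here. The labels give bone marrow as the tissue although the cells are this line, which divides continuously in culture.

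A cell that meets a broken DNA strand activates the kinases ATM, ATR and DNA-PK, which pass the signal to the checkpoint kinases CHK1 and CHK2 and to p53. Double-strand breaks are rejoined directly by end joining in any phase of the cell cycle, or copied from the sister chromatid by homologous recombination, which works in S and G2 phase. Many recombination and Fanconi genes are transcribed with the replication machinery under E2F factors. A smaller set, here Ddb2, Xpc, Polk and Rrm2b, was grouped as p53 targets from textbook knowledge. Macrophages treated with LPS and IFN-γ are known to slow or stop dividing.

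Reads counted per library were between 17894937 and 18870516. Single members had between 3 counts (Fanci in RM1) and 4150 counts (Ercc1 in M1), with a median of 373 counts in M0 and 160 in M1. In total 41 of the 46 members had at least 10 counts in every library, and Rad51ap1, Rad54l, Xrcc3, Fancd2 and Fanci did not. All 46 had at least 10 counts in at least 3 libraries and entered the tests. Per kilobase of the longest transcript, Trp53 (41.4) and Parp1 (30.4) were among the most abundant members in M0 and Bard1 (0.374) was the least abundant, against a member median of 4.15, all in TMM-scaled CPM (counts relative to library size) per kb. Ercc1 stood higher still by this measure, but the interval listed for it in the tables covers only 0.902% of the annotated gene, and that for Fanci only 1.07%, so where within these genes the reads were counted is not known. All 9 macrophage markers had at least 10 counts in every library, while T cell and epithelial markers had at most 1 count. The markers of the M2 state were low or absent. Chil3 and Retnla were at 0 in all libraries, Arg1 had 31 counts in M2 and 89 in RM2, and Mrc1 had 6 and 12 counts there against 10 in M0 and 50 in M1, which goes against the label.

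The stretches below lie just upstream of the start sites of Brca2, Chek2 and Mdc1, members that fell in M1, and of Xrcc6, which did not pass that test. They are shown because each holds letters of the E2F site, given in capitals, on either strand. They are taken from RefSeq promoters on GRCm38.p6 and written 5′ to 3′ on the strand of the gene.
Brca2, chr5:150522397-150522516, plus strand: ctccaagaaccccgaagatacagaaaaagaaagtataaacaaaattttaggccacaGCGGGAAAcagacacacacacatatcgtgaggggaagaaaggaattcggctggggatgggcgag
Chek2, chr5:110839775-110839894, plus strand: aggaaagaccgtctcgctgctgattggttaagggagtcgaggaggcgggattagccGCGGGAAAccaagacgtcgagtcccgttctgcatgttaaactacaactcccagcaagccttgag
Mdc1, chr17:35841378-35841497, plus strand: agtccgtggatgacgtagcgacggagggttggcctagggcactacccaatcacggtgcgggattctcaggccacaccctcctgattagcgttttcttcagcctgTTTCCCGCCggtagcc
Xrcc6, chr15:82016249-82016368, plus strand: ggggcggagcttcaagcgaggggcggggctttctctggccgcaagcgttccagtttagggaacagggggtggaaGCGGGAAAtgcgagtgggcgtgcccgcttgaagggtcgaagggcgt

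The letters searched were TTTCCCGC, TTTGGCGC and TTCCCGCC on both strands, of which the first and the last overlap in TTTCCCGCC. Promoters were found for 36 of the 46 members, and 10 of the 36 (27.8%) held at least 1 match, against 3.69% of all 27025 genes with a promoter. The 10 were Chek1, Chek2, Mdc1, Rnf8, Rnf168, Xrcc6, Brca2, Bard1, Rad51ap1 and Msh6. The letters were held by 6 of 18 members that fell in M1 (33.3%) and by 4 of 18 that did not (22.2%). The letters TTTGAA of the cell cycle homology region were present in 3 of the 36 (8.33%), against 20.2% of all genes. A single arm of the p53 response element, searched by its consensus, was present in Trp53, Fanca and Polk (8.33%), against 9.55% of all genes. The Polk match lies in the stretch below, in capitals, 221 bases before 1 of the 2 start sites searched for Polk. That start site lies inside the gene as counted, chr13:96480689-96542485 on the minus strand, and not at its outer end.
Polk, chr13:96519318-96519437, minus strand: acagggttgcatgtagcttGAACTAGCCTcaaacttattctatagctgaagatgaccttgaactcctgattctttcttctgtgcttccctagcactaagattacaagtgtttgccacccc

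The largest differences among these genes lay between M1 and the other states. Atr, which encodes the kinase that answers stalled replication forks, had 398 counts in M0 and 457 in M2 but 24 in M1, and Rad54l, the recombination motor protein, had 149, 163 and 6. Over all 6 libraries, 21 members fell with M1 polarization and 3 rose, while 22 did not pass the test. The members that fell were spread over damage signaling (7 of 13), end joining (2 of 5), homologous recombination (4 of 9), base excision and single-strand break repair (5 of 7), nucleotide excision (1 of 6) and the Fanconi pathway (2 of 3). Of these, Rad54l, Rad51ap1, Fancd2 and Fanci were under 10 counts in M1 and RM1, and entered the test through the M0 and M2 states. The members that rose were Ercc1, Msh6 and Nbn. The test was edgeR's quasi-likelihood test of polarization and irradiation together, with Benjamini-Hochberg adjustment over all 11574 genes tested and a threshold of 0.05. It treats the irradiated and non-irradiated arm as replicates of a state, and left 2 residual degrees of freedom. Among all genes tested, 24.3% fell and 23.3% rose in M1, so the 45.7% of members that fell stood above the background of lower calls and the 6.52% that rose stood below that of higher calls. With scaling by library totals in place of TMM, the median of all genes in M1 against M0 moved from -0.03 to -0.46, the share of lower calls over all genes went from 51.1% to 81.3%, and among the members 30 fell and 1 rose, with Msh6 and Nbn no longer past the threshold. In RNA from whole cultures, fewer cells of a kind and less RNA per cell cannot be told apart.

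Between single libraries, 14 members were at least 2-fold lower in M1 than in M0 and 1 was higher, where among all genes with the same minimum of 10 counts 13.3% were lower and 9.37% higher. Between the irradiated libraries RM1 and RM0, 8 members were lower and 0 higher, against 7.87% and 6.16% of all genes. The median log2 fold change of the members was -0.52 in M1 against M0 and -0.32 in RM1 against RM0, where that of all genes was -0.03 and -0.01. In the first of these pairs 38 of the 46 members lay below 0. By group the median in M1 against M0 was -2.29 in the Fanconi pathway, -1.0 in homologous recombination, -0.69 in damage signaling, -0.58 in end joining and -0.53 in base excision. In nucleotide excision it was 0.02, which turned to -0.42 with scaling by library totals.

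**Figure D1:**
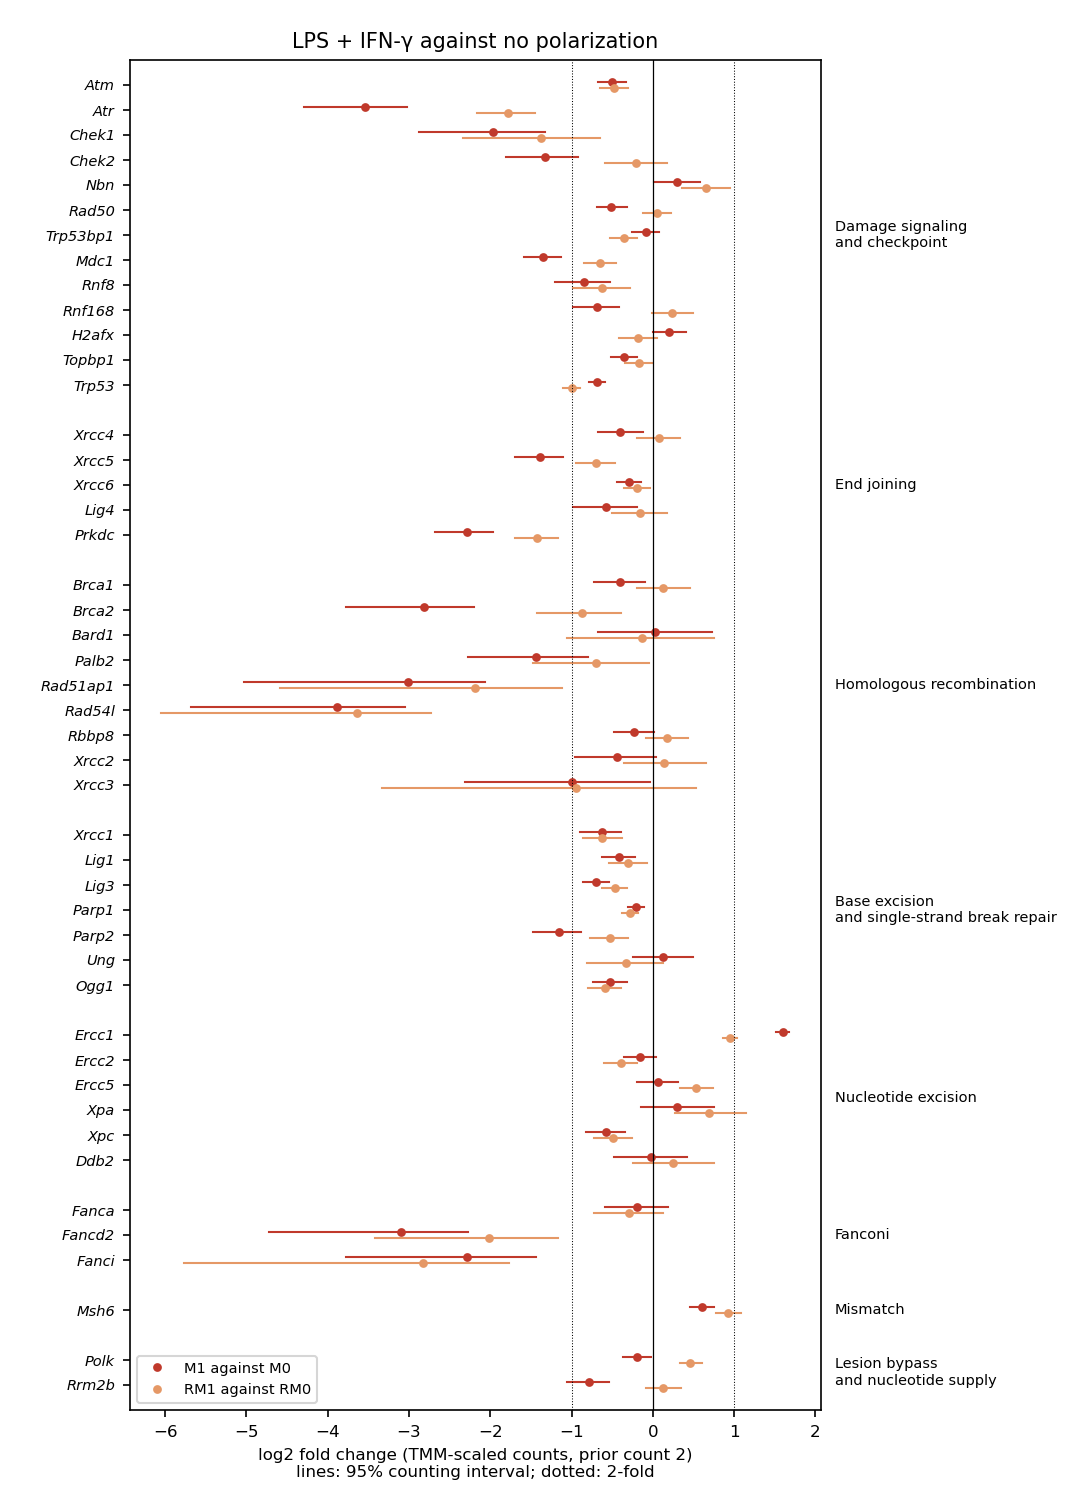
Log2 fold change on the horizontal axis of each of the 46 members (rows, by pathway group) in M1 against M0 (red) and RM1 against RM0 (orange), 1 library per condition; lines are 95% counting intervals and dotted lines mark 2-fold. Rad54l, Atr, Fancd2, Rad51ap1 and Brca2 lie farthest to the left in M1 against M0, between -3.89 and -2.82, and Ercc1 farthest to the right at 1.60.

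Of the damage kinases, Atr carried the largest change. It had 335 counts in RM0, 82 in RM1 and 460 in RM2, so that both M1 libraries lay below all other libraries. Its log2 fold change with M1 was -2.51 ± 0.31 (SE, adjusted p = 0.000124). Prkdc, which encodes the catalytic subunit of DNA-PK, the end joining kinase, had 514 counts in M0, 506 in RM0, 606 in M2 and 666 in RM2, and 77 in M1 and 160 in RM1. It fell by 1.82 ± 0.20 on the log2 scale (adjusted p = 5.42e-05). Atm, the kinase first activated by double-strand breaks, moved far less. It had 855, 779, 939 and 1103 counts in M0, RM0, M2 and RM2, and 451 in M1 and 475 in RM1, a fall of 0.49 ± 0.14 (adjusted p = 0.0134).

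The checkpoint kinase genes were lower in M1 as well. Chek1 had 101 counts in M0, 55 in RM0, 135 in M2 and 91 in RM2, against 18 in M1 and 17 in RM1. Its log2 fold change was -1.78 ± 0.30 (adjusted p = 0.000831). Chek2 had 195, 140, 221 and 163 counts in M0, RM0, M2 and RM2, and 57 in M1 and 103 in RM1, so that RM1 lay between M1 and the other libraries. It fell by 0.73 ± 0.27 (adjusted p = 0.0439), and did not pass with the DESeq2 test, with a GC offset, with GC and length offsets, or without the M0 or the M1 library (-0.48 and -0.22). Trp53, the transcription factor at the end of this signal, was abundant in all libraries, with 2690 counts in M0, 2689 in RM0, 2601 in M2 and 2287 in RM2. It had 1246 counts in M1 and 1141 in RM1, and fell by 0.85 ± 0.13 (adjusted p = 0.000363).

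Among the proteins that gather at the break, Mdc1, the adaptor that reads phosphorylated histone H2AX, had 702 counts in M0, 585 in RM0, 671 in M2 and 674 in RM2, against 205 in M1 and 317 in RM1 (-0.99 ± 0.17, adjusted p = 0.00079). Rnf8, the ubiquitin ligase that Mdc1 recruits, fell by 0.75 ± 0.18, from 258, 198, 224 and 202 counts in M0, RM0, M2 and RM2 to 106 in M1 and 109 in RM1. Nbn, a subunit of the MRE11 complex that senses breaks, went the other way. Its counts were 230 and 165 in M0 and RM0, 211 and 221 in M1 and RM1, and 331 and 325 in M2 and RM2. The raw counts of the M0 and M1 states overlapped, and its rise of 0.47 ± 0.17 (adjusted p = 0.0449) did not pass with library totals (0.12), with DESeq2, with no filter or a minimum of 50 counts, without M2 and RM2, or without the M2, RM0 or RM2 library (0.47, 0.27 and 0.47). The other members of the group, Rad50, Trp53bp1, Rnf168, H2afx and Topbp1, did not pass this test, with log2 fold changes between -0.27 and 0.02.

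Homologous recombination held the steepest single difference. Rad54l had 83 counts in RM0 and 115 in RM2 against 6 in M1 and 4 in RM1, and its fall of 4.15 ± 0.35 had the smallest adjusted p of all members (1.01e-05). Rad51ap1, a recombination factor, had 69, 29, 94 and 50 counts in M0, RM0, M2 and RM2, and 5 in M1 and 4 in RM1 (-3.03 ± 0.43, adjusted p = 0.000268). Brca2, a mediator of strand exchange, had 165, 103, 204 and 139 counts in M0, RM0, M2 and RM2, and 16 in M1 and 47 in RM1 (-1.74 ± 0.39, adjusted p = 0.00396). For all of these members the M1 and RM1 libraries lay below the other 4. Rad54l and Rad51ap1 were under the minimum count in both M1 and RM1, and entered the test through the M0 and M2 states. Without M2 and RM2 they were not tested. A gene that reached the minimum only in M1 and RM1 could not have entered the test. Palb2, the protein that joins BRCA1 to BRCA2, had 80, 53, 94 and 65 counts in M0, RM0, M2 and RM2 and 21 and 27 in M1 and RM1 (-1.11 ± 0.31, adjusted p = 0.0123), and its call was lost without the M0 or without the M1 library (-0.94 and -0.76). Brca1 itself did not pass. Its counts were 242 and 166 in M0 and RM0, 136 and 155 in M1 and RM1, and 295 and 212 in M2 and RM2, and its log2 fold change was -0.14 ± 0.19 (adjusted p = 0.582). Bard1, Rbbp8, Xrcc2 and Xrcc3 did not pass either, with values from -1.13 to -0.04. About 15.4% of the exon bases of Rad54l are shared with Lrrc41 on the opposite strand, and the use of strand in the counting is not given in the sources used here. Lrrc41 had 2322 counts in M0 and 1947 in M1.

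The Fanconi pathway repairs crosslinks between strands. Its central pair, Fancd2 and Fanci, were both lower in M1, and Fanca of the core complex was not called. Fancd2 had 97, 49, 133 and 93 counts in M0, RM0, M2 and RM2, and 7 in M1 and 9 in RM1 (-2.80 ± 0.38, adjusted p = 0.000193). Fanci had 61, 38, 49 and 34 counts in those libraries and 8 and 3 in M1 and RM1 (-2.81 ± 0.43, adjusted p = 0.000414), and it was not tested under a stricter minimum of 50 counts. Fancd2 and Fanci were also under the main minimum count in M1 and RM1, and neither was tested without M2 and RM2. Fanci shares 16% of its exon bases with Polg on the opposite strand, which had 867 counts in M0 and 325 in M1. Fanca had a log2 fold change of -0.24 ± 0.21.

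In end joining, Xrcc5, which encodes the larger Ku subunit KU80, had 442, 408, 480 and 487 counts in M0, RM0, M2 and RM2, and 125 in M1 and 213 in RM1. It fell by 1.03 ± 0.18 (adjusted p = 0.000971). Xrcc6, its partner KU70, had a log2 fold change of -0.25 ± 0.12 (adjusted p = 0.116), and Xrcc4 and Lig4, the ligation complex, had -0.16 ± 0.17 and -0.36 ± 0.19. Whether these partners differed from Xrcc5 was not tested.

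In base excision and single-strand break repair 5 of 7 members fell, and in nucleotide excision 1 of 6 fell and 1 rose. Parp2, a poly(ADP-ribose) polymerase, had 399, 409, 419 and 436 counts in M0, RM0, M2 and RM2, against 132 in M1 and 240 in RM1 (-0.83 ± 0.18, adjusted p = 0.0034). Xrcc1, the scaffold of single-strand break repair, had 412, 405, 452 and 376 counts in those libraries and 198 and 224 in M1 and RM1. Lig3, its ligase, had 1023, 986, 1091 and 1108 counts and 469 and 607 in M1 and RM1. They fell by 0.63 ± 0.15 and 0.58 ± 0.13. Ogg1, the glycosylase that removes oxidized guanine, fell by 0.56 ± 0.13, from 550, 560, 459 and 493 counts to 284 and 316. Lig1, the replicative ligase, had 566 counts in M0 and 314 in M1, and its fall of 0.37 ± 0.14 (adjusted p = 0.0433) was the smallest past the threshold. That call was lost with DESeq2, with a GC correction and with any library but RM1 left out (-0.41 to -0.32). Xpc, the lesion sensor of nucleotide excision, had 427, 399, 421 and 387 counts in M0, RM0, M2 and RM2 and 213 and 242 in M1 and RM1 (-0.53 ± 0.14, adjusted p = 0.0102). Without the M0 library Xpc did not pass (-0.52), and neither did Atm (-0.39) or Rnf8 (-0.63). Lig3 shares 25.1% of its exon bases with Rffl on the opposite strand, which had 669 counts in M0 and 1254 in M1.

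Ercc1, a subunit of the nuclease that cuts 5′ of a lesion, was the member that rose most. It had 1839 counts in M0, 1813 in RM0, 1738 in M2 and 1698 in RM2, within a narrow range, and 4150 in M1 and 2973 in RM1. Its log2 fold change was 1.28 ± 0.16 (adjusted p = 0.000141). Its annotated exons share 106 bases with Cd3eap on the opposite strand, which had 826 counts in M0 and 163 in M1. The interval listed for Ercc1, chr7:19356419-19356524, is as long as this shared stretch. Whether they coincide, and which gene the reads came from, was not tested. Msh6, the mismatch sensor, had 716, 588, 672 and 569 counts in M0, RM0, M2 and RM2, and 813 in M1 and 951 in RM1, a rise of 0.77 ± 0.13 (adjusted p = 0.000812).

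The 12 replication-linked members, grouped from textbook knowledge of their regulation, had a median log2 fold change of -1.20 in M1 against M0, and 7 of them fell and Msh6 rose. The 30 members that are neither replication-linked nor p53 targets had a median of -0.52, with 13 falling and 2 rising. Cell cycle genes moved with these values. Of 20 S phase genes, 14 fell in M1 and 1 rose, with a median of -1.03 in M1 against M0, and of 20 mitosis genes 9 fell and 1 rose, with a median of -0.73. The part of the cell cycle in the members' values was not tested. Markers of other cell types also moved with M1. The summed level of 5 fibroblast markers was between 42.7 and 43.8 CPM in M1 and RM1 and between 5.92 and 9.32 in the other libraries, carried by Dcn (627 counts in M1, 113 in M0), with Col1a2 and Col3a1 at 0 in all libraries. That of the neutrophil markers was between 2200 and 3070 against 140 to 340, carried by S100a8, with S100a9 at 19 counts or fewer. Their part in the members' values was not tested.

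The wider repair machinery was described with 91 other genes of the same pathways, of which 90 were tested. Of these, 42 fell and 15 rose in M1, where 24.3% of all genes tested fell and 23.3% rose. The steepest falls were those of Exo1, the resection nuclease (-3.38 ± 0.53, with 56 counts in M0 and 3 in M1), Neil3, a glycosylase (-3.06 ± 0.63, with 33 and 1), and Gen1, which resolves recombination junctions (-2.88 ± 0.43). The steepest rises were those of Rad51b, a recombination gene (1.57 ± 0.30, with 27 and 57 counts), Blm, a helicase (1.07 ± 0.20, with 321 and 367), and Mad2l2, a subunit of a bypass polymerase (0.98 ± 0.16).

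**Figure D2:**
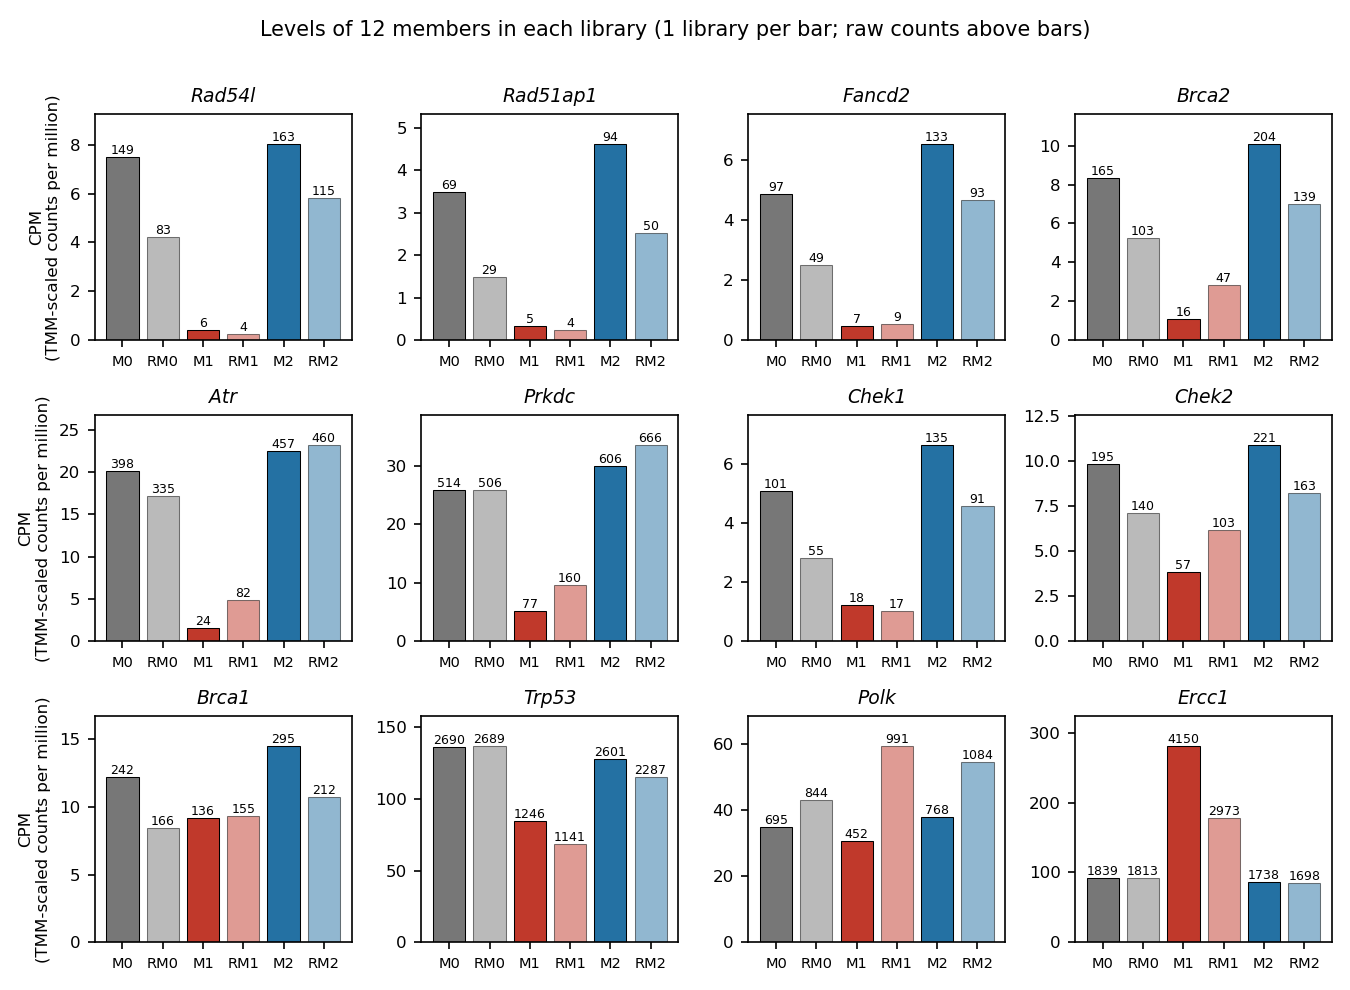
CPM (TMM-scaled counts relative to library size) on the vertical axis for 12 members in each of the 6 libraries, 1 bar per library with the raw counts above it and irradiated libraries in the lighter shade. Rad54l, Rad51ap1, Fancd2, Brca2, Atr, Prkdc and Chek1 are lowest in M1 and RM1, Ercc1 is highest there, and Polk is higher in each irradiated library than in its non-irradiated counterpart.

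Few differences were seen between M2 and M0. At 2-fold, 0 members differed between M2 and M0, where 1.44% of all genes did, and 0 between RM2 and RM0, where 2.61% did. The median log2 fold change of the members was 0.05 in M2 against M0 and 0.19 in RM2 against RM0. In edgeR's quasi-likelihood test of M2 over all 6 libraries 0 of 46 members passed, 6 had an unadjusted p under 0.05 (13%, against 10.1% of all genes) and DESeq2 called 0, while 0.19% of all genes passed. With the M1 and RM1 libraries left out, which leaves 1 residual degree of freedom, 5 members rose in M2 and 0 fell, against 6.87% of all genes that rose. They were Nbn (0.72 ± 0.14, adjusted p = 1.44e-05), Fancd2 (0.63 ± 0.20, adjusted p = 0.0206), Rbbp8 (0.39 ± 0.13, adjusted p = 0.0246), Rrm2b (0.35 ± 0.12, adjusted p = 0.0326) and Atm (0.30 ± 0.11, adjusted p = 0.0425). Nbn had 331 and 325 counts in M2 and RM2 against 230 and 165 in M0 and RM0, the clearest separation of these. Rbbp8, which encodes the resection factor CtIP, had 390 and 407 counts against 348 and 257. With the trend on GC content removed, the log2 fold changes in RM2 against RM0 went from 0.48 to 0.22 in Atm, from 0.64 to 0.36 in Rbbp8 and from 0.60 to 0.22 in Rrm2b, and those in M2 against M0 were 0.02, 0.04 and -0.04.

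After 10 Gy, no member passed the test of an irradiation effect shared by all 3 states. In edgeR's quasi-likelihood test 0 of 46 passed, 15 had an unadjusted p under 0.05 (2 higher and 13 lower, or 4.35% and 28.3%, against 7.88% and 6.87% of all genes), and DESeq2 called 1, Polk, which was higher. Of all genes, 0.475% passed the edgeR test. The nearest members were Lig1 (-0.55 ± 0.11, adjusted p = 0.0599), Polk (0.59 ± 0.13, adjusted p = 0.0768) and Ung, the uracil glycosylase (-0.79 ± 0.18, adjusted p = 0.0868). At 2-fold between single libraries, Rad51ap1 and Xrcc3 were lower in RM0 than in M0, where 1.54% of all genes differed. Atr and Brca2 were higher and Xrcc3 was lower in RM1 than in M1, among 42 members with at least 10 counts and where 5.34% of all genes differed. In RM2 against M2, 0 members differed, and 1.97% of all genes did. Xrcc3, a recombination gene, had only 29 and 11 counts in M0 and RM0, 10 and 4 in M1 and RM1, and 27 and 14 in M2 and RM2, and its counting interval in RM1 against M1 reached from -3.62 to 0.30.

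The members' median log2 fold change was -0.25 in RM0 against M0, 0.01 in RM1 against M1 and -0.12 in RM2 against M2, while that of all genes was within 0.01 of 0 in each. In RM0 against M0, 39 of 46 members lay below 0, as did 29 in RM2 against M2. Of the 42 members with at least 10 counts in each of these pairs, 13 (31%) lay below 0 in all 3 states and 4 (9.52%) above, against 19.6% and 19.5% of all genes. Those above were Lig4, Parp2, Ercc5 and Polk.

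**Figure D3:**
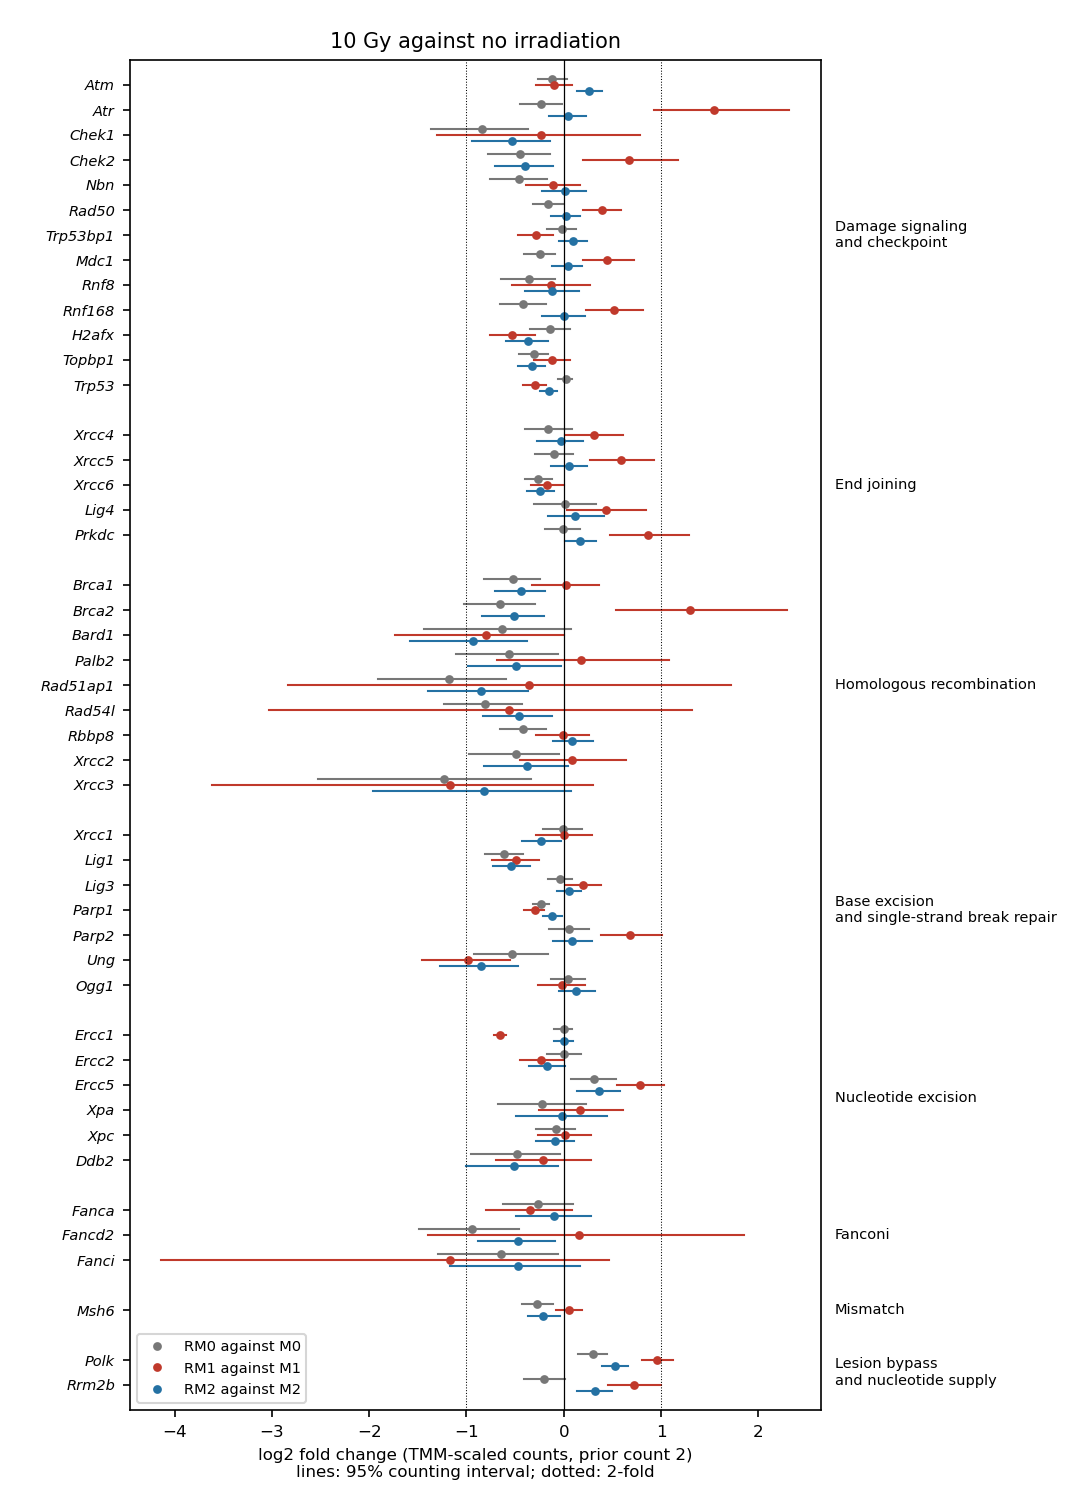
Log2 fold change on the horizontal axis of each of the 46 members (rows, by pathway group) in RM0 against M0 (grey), RM1 against M1 (red) and RM2 against M2 (blue), 1 library per condition; lines are 95% counting intervals and dotted lines mark 2-fold. The grey and blue points lie mostly left of 0 in homologous recombination and the Fanconi pathway, and the red points of Atr (1.54) and Brca2 (1.30) lie to the right.

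In the M0 and M2 states alone, tested on 4 libraries with 1 residual degree of freedom, 8 members fell after irradiation and 1 rose, against 2.1% of all genes that fell and 2.45% that rose. Those that fell were Brca1, Brca2, Chek1, Fancd2, Lig1, Rad51ap1, Rad54l and Ung, and all 8 belong to the 12 replication-linked members. The member that rose was Polk. Whether M0 and M2 were kept for the further time of RM0 and RM2 is not given. Time in culture and irradiation therefore cannot be told apart here. Lig1 went from 566 to 366 counts in M0 and from 572 to 385 in M2 (-0.57 ± 0.12, adjusted p = 0.000136). Rad51ap1 went from 69 to 29 and from 94 to 50 (-1.02 ± 0.24, adjusted p = 0.00138). Brca1 went from 242 to 166 and from 295 to 212 (-0.48 ± 0.14, adjusted p = 0.0238), and Ung from 144 to 98 and from 151 to 81 (-0.69 ± 0.18, adjusted p = 0.00554). Rad54l, Brca2, Chek1 and Fancd2 fell by 0.63, 0.58, 0.67 and 0.68. In each of the 8 genes RM0 and RM2 both had fewer counts than M0 and M2, with the narrowest gap in Fancd2 (93 in RM2 against 97 in M0). All 12 replication-linked members lay below 0 in both pairs, with medians of -0.63 and -0.49, whereas the 30 members outside that class and outside the p53 targets had medians of -0.16 and 0.00, and 0 of them passed. At an unadjusted p under 0.05 in this test, 6 of the 30 were lower and 1 was higher. Recombination members among the 30 were Xrcc3 (-1.23 and -0.82), Palb2 (-0.56 and -0.49), Xrcc2 (-0.49 and -0.38) and Rbbp8 (-0.42 and 0.09).

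The cell cycle lists moved in the same libraries. In M0 and M2, 19 of 20 S phase genes and 19 of 20 mitosis genes fell after irradiation. The S phase medians were -0.64 in RM0 against M0, -0.41 in RM1 against M1 and -0.52 in RM2 against M2, and the mitosis medians were -0.81, -0.31 and -0.78. Over all 6 libraries Mcm2, Mcm3, Mcm5 and Mcm6, subunits of the replicative helicase, and Cdc20, a mitotic regulator, passed. The part of the cell cycle in the fall of the repair genes was not tested. Of the 90 other repair genes tested, 10 fell in M0 and M2 and 0 rose, against 2.1% and 2.45% of all genes. Those that fell included Clspn, Exo1, Pcna, Rpa2, Timeless, Tipin, Ube2t and Wee1. Rpa2, a subunit of the single-strand binding protein, was the only one past the test over all 6 libraries. It had 439, 214 and 466 counts in M0, M1 and M2 and 252, 169 and 252 after irradiation (-0.73 ± 0.13, adjusted p = 0.039).

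**Figure D4:**
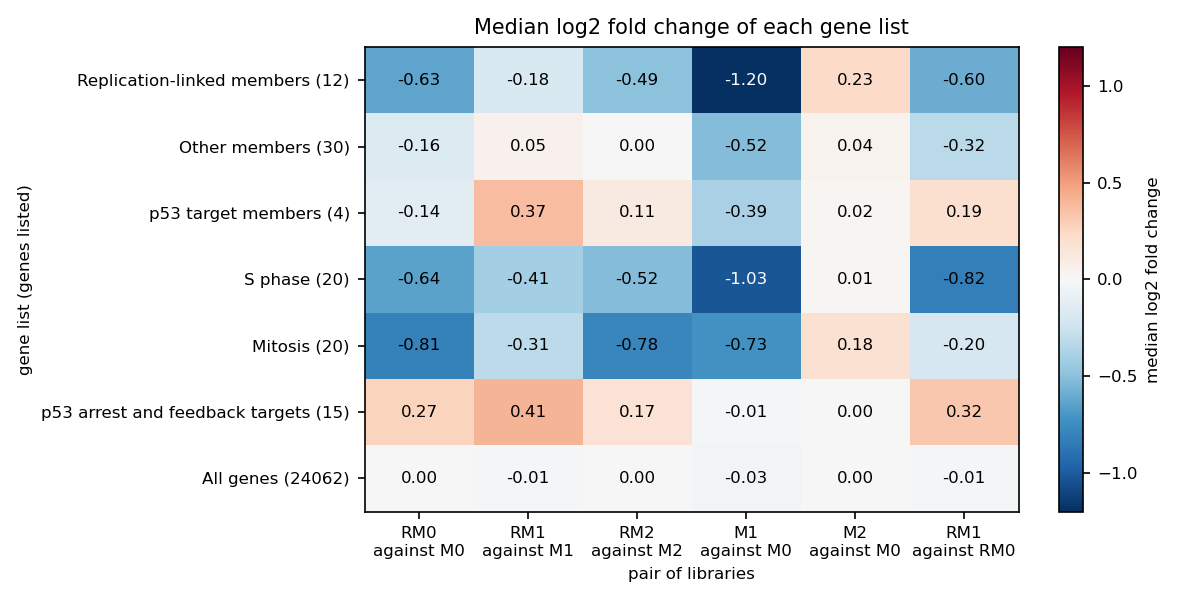
Median log2 fold change (colour and printed value) of 3 classes of members, 3 gene lists and all genes with at least 10 counts in either library (rows, with the number of genes listed), in 6 pairs of libraries (columns). Replication-linked members, S phase and mitosis genes are below 0 in all 3 irradiated pairs and in M1 against M0, where the median of all genes is within 0.03 of 0.

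The 4 members grouped as p53 targets from textbook knowledge did not move together after irradiation. Whether p53 acts on each of them in these mouse cells was not tested. Polk, a DNA polymerase that copies past lesions, went from 695 to 844 counts in the M0 state, from 452 to 991 in M1 and from 768 to 1084 in M2. It was higher in the irradiated library of every state, and it rose by 0.42 ± 0.11 in M0 and M2 (adjusted p = 0.00393). Rrm2b, the p53-inducible ribonucleotide reductase subunit, went from 413 to 355 counts in the M0 state, from 177 to 331 in M1 and from 448 to 547 in M2, so it was lower in RM0 and higher in the other 2 irradiated libraries. Ddb2, which senses ultraviolet lesions, had 101 and 71 counts in M0 and RM0, 74 and 72 in M1 and RM1, and 97 and 66 in M2 and RM2, with a log2 fold change of -0.41 ± 0.19 over all states (adjusted p = 0.343). Xpc changed by -0.06 ± 0.11. Of 15 other p53 targets of arrest and feedback, Ccng1, Eda2r, Mdm2, Phlda3, Plk2 and Trp53inp1 rose in M0 and M2 and 0 fell, and Ccng1 was the only one past the test over all 6 libraries (0.81 ± 0.12, adjusted p = 0.0146). The counts of Trp53 itself were 2690 and 2689 in M0 and RM0, a log2 fold change of 0.02 with a counting interval from -0.06 to 0.09. Trp53 was lower in RM1 than in M1 (-0.30, interval -0.42 to -0.18) and in RM2 than in M2 (-0.15, interval -0.24 to -0.07). It did not pass edgeR's test over all 6 libraries (-0.14 ± 0.10, adjusted p = 0.524). Ercc5, the nuclease that cuts 3′ of a lesion, was above 0 in each state (0.31, 0.78 and 0.36) and did not pass (0.48 ± 0.13, adjusted p = 0.153).

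Irradiation went with different values in M1 than in M0 and M2 for some of the members lowest in M1. This difference was tested with an interaction term, added after the data had been seen and with 1 residual degree of freedom, which treats M0 and M2 as replicates and takes the spread of M1 to be theirs. Whether M1 was kept for the same further time as RM1 is not given, so time since polarization cannot be told apart from irradiation here. The single M1 library also enters both M1 against M0 and RM1 against M1. A member that reads low in it by error therefore reads higher in RM1 against M1. In this test 7 members passed with a difference above 0 and 1 with a difference below 0, against 4.05% and 4.61% of all genes. By sign alone, 32 members lay above 0 and 14 below. Atr had 24 counts in M1 and 82 in RM1, while M0 and M2 went from 398 to 335 and from 457 to 460, and the difference was 1.68 ± 0.36 (adjusted p = 0.000218). Brca2 had 16 counts in M1 and 47 in RM1 and was lower after irradiation in M0 and M2, a difference of 1.96 ± 0.45 (adjusted p = 0.000858). Chek2 went from 57 to 103 counts in M1, and from 195 to 140 and 221 to 163 in M0 and M2 (1.11 ± 0.32, adjusted p = 0.0123). Prkdc went from 77 to 160 counts in M1, with 514 to 506 and 606 to 666 in the other states (0.80 ± 0.26, adjusted p = 0.0335). Ercc1, which was higher in M1, went from 4150 to 2973 counts there and stayed at 1839 to 1813 and 1738 to 1698 in M0 and M2 (-0.65 ± 0.17, adjusted p = 0.00348). Rnf168, the ubiquitin ligase acting after Rnf8, Rrm2b and Polk had differences of 0.73, 0.66 and 0.54. With the trend on GC content as an offset, Prkdc, Rnf168, Rrm2b and Polk no longer passed, whereas Atr, Brca2, Chek2 and Ercc1 did.

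Atr, Prkdc, Brca2, Chek2 and Ercc1 lay on the same side of 0 in RM1 against RM0 as in M1 against M0, with Chek2 within counting error of 0 (-0.59 to 0.17). Atr was at -1.78 and Prkdc at -1.42 in the irradiated pair, against -3.54 and -2.29 in the other. Brca2 was at -0.87 against -2.82, Chek2 at -0.21 against -1.33, and Ercc1 at 0.95 against 1.60. Rad54l, Rad51ap1, Fancd2 and Fanci did not follow them, with 4, 4, 9 and 3 counts in RM1 against 6, 5, 7 and 8 in M1. At these counts a difference between M1 and RM1 was not detectable at this depth, and the counting interval of Fancd2 reached from -1.40 to 1.85. Among the 90 other repair genes tested, 7 passed the interaction test above 0 and 0 below, against 4.05% and 4.61% of all genes. The 7 included Blm, Dna2, Nabp1, Rad17, Rif1 and Tipin. By sign alone, 68 of the 90 lay above 0 and 22 below. Dna2, a resection nuclease, had 83 counts in M1 and 151 in RM1, with 371 and 327 in M0 and RM0.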

How the data were processed

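RNA-seq was available for 6 conditions with 1 library each. Per the labels and the submitters' processing notes, reads were handled with Trimmomatic (version 0.36), HISAT2 (version 2.2.1) and HTSeq (version 0.11.3) on mm10, and the authors deposited raw counts per RefSeq gene without normalization. The members and gene lists were chosen with earlier results of these data known.

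Counts were scaled with TMM (edgeR version 4.0.16, R version 4.3.3) over the 11574 genes that reached 10 counts in 3 or more libraries, and a prior count of 2 was added before fold changes were taken on the log2 scale. Members differing 2-fold between a pair of libraries were called if either reached 10 counts. Intervals at 95% are exact Clopper-Pearson intervals and cover counting error only. Each SE printed after ± was derived from the test, as the absolute log2 fold change over the square root of its F value. Tests were edgeR's quasi-likelihood tests on state and irradiation with Benjamini-Hochberg adjustment, in which libraries of other conditions stand in for replicates, so p-values measure only the spread between these libraries, which may be technical. Alternatives were DESeq2 (version 1.42.0), other scalings, filters, prior counts and thresholds, each library or state left out, and, added after the data had been seen, GC and length trends and the interaction model.

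Counts are printed for members past a test, called at 2-fold, or among Trp53, Atm, Atr, Prkdc, Chek1, Brca1, Ddb2, Xpc, Polk and Rrm2b. Other genes are named where they passed a test or were chosen after their values were seen. Transcript lengths, GC content and exon overlaps came from GENCODE M21, promoters from RefSeq. Python (version 3.11.15) with pandas (version 2.3.3), scipy (version 1.17.1) and matplotlib (version 3.10.9) served for the rest. Some genes of the wider repair lists are not reported here by name.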

Additional observations from a re-analysis of the deposited data

Results flagged for a closer look

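The effect of irradiation differed between M1 and the other 2 states by the interaction test for 8 members. On the log2 scale the effect in M1 minus that in M0 and M2 was 1.96 for Brca2, 1.68 for Atr, 1.11 for Chek2, 0.80 for Prkdc, 0.73 for Rnf168, 0.66 for Rrm2b and 0.54 for Polk, and -0.65 for Ercc1. Each M1 library is a single library, so a difference between M1 and RM1 that is particular to these libraries cannot be told apart from one of the condition. Whether M1 was kept for the further 24 h of RM1 is not given, so irradiation and time since polarization cannot be told apart either. From M1 to RM1, raw counts of M1 state markers went from 8628 to 1710 in Irf1 and from 1278 to 242 in Cxcl10. Nos2 went from 169925 to 129631 and Cd86 from 493 to 319, while Il1b rose from 2819 to 6624 and Il6 from 449 to 724. With GC content as an offset the differences were 1.77 for Brca2, 1.46 for Atr, 1.01 for Chek2 and -0.51 for Ercc1, which passed, and 0.62 for Prkdc, 0.57 for Rnf168, 0.41 for Rrm2b and 0.33 for Polk, which did not.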

How the results depend on the processing

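No paired analysis was possible because each condition has 1 library and no replicate numbers to pair, beyond the matching of each irradiated library to its state that the main model already makes. With a 1.5-fold threshold the members called were 9 in RM0 against M0 (all lower, with 3.47% of all genes lower), 13 in RM1 against M1 (9 higher and 4 lower, with 10.3% and 7.5% of all genes), 4 in RM2 against M2 (all lower, with 3.85%), 1 in M2 against M0 (higher, with 3.18%), 20 in RM1 against RM0 (4 higher and 16 lower, with 32.6% of all genes in either direction) and 6 in RM2 against RM0 (all higher, with 6.43%). With a minimum of 50 counts they were 1, 1 and 5 in RM0 against M0, RM1 against M1 and RM1 against RM0. With library totals they were 5 in RM1 against M1, 23 in M1 against M0 and 1 in RM2 against RM0, and the median over the members was -0.96 (M1 against M0) and 0.12 (M2 against M0). With GC and length trends removed, 1 member was called in RM2 against M2. In the irradiation test, 2 members passed with no filter on counts, 1 with DESeq2, 1 without M0 and RM0 and 9 without M1 and RM1. Leaving out 1 library gave from 0 members (M2 or RM2) through 4 (M0 or RM0) to 10 (M1 or RM1). In the M2 test, 5 passed without M1 and RM1, and leaving out 1 library gave from 0 (M2, RM0 or RM2) through 1 (M0) to 5 (M1 or RM1). In the M1 test, leaving out 1 library gave from 18 (M0) to 29 (RM1) members. In the interaction test, 13 members passed with library totals, 4 with a GC offset and 4 with GC and length offsets. Apart from the library, filter or tool that each alternative removes or replaces, the cause was not tested. Of the values that called members took under alternatives, 458 stayed past the threshold, 45 lost their call and 0 reversed. Members not called in the main tests are outside this tally, while the counts above include calls gained. Members under 10 counts in M1 limit what can be seen there.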
